A study of Mus musculus with 12 samples.

Results

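The genes described here are 2 actins (Actb and Actg1), the transcription factor gene Srf, 3 β-tubulins (Tubb2a, Tubb2b and Tubb5) and 4 α-tubulins (Tuba1a, Tuba1b, Tuba1c and Tuba4a), 10 of the 22322 gene symbols in the liver RNA-seq tables. They were taken by symbol, and their 19 transcript rows are all used below. The symbols were picked after the time and genotype differences of these same 12 livers had been seen, so their own differences are given as a description, without p-values, and are not support for anything. Livers came from mice given as C57BL/6 and 8 weeks old in the labels and as a C57BL/6J background in the study's methods. The mice spent the last days in constant darkness, and livers were taken at circadian time 0 h (CT0, when lights would have come on) or 12 h (CT12), with 3 samples in each of 4 groups. WT mice carried Bmal1 (Arntl) alleles flanked by loxP sites (floxed). KO mice carried the same floxed alleles together with a CRE recombinase driven in the liver, which removes exons of the DNA-binding domain there. No CRE is stated for WT mice, so an effect of CRE cannot be told apart from that of the deletion. The cell types of the liver in which that CRE is active are not given in the sources used here. The study's methods give as many mice per group as there are samples. A protocol text in the labels gives fewer, and the p-values below measure the spread between these samples.

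Actin filaments and microtubules are built from globular subunits that are held in balance with the polymers. Monomeric actin binds the MRTF cofactors of SRF and keeps them out of the nucleus. When monomers are used up, SRF with its cofactors activates actin genes, Srf itself and many genes of the actin cytoskeleton, and in mouse liver this pathway is known to follow the time of day. Tubulin messages are controlled in another way. When free αβ-dimers are abundant, the protein TTC5 recognises the first residues of a growing tubulin chain and the message is destroyed on the ribosome. BMAL1 pairs with CLOCK and activates genes through E-boxes.

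The level of each gene is given in RPKM, reads scaled to transcript length and to depth, so levels of different genes can be compared per length. The depth recovered from the step of the low values was 11460000 to 19020000 reads per sample, so that 1 read counted for 0.0263 to 0.0436 RPKM when the transcript had 2 kilobases. Differences are on the scale of log2(RPKM + 1), which understates the change of low genes, with the standard error (SE) of a limma fit to all 12 samples. A gene was counted as past the threshold, or called, when its limma p-value adjusted over the 10799 genes tested was under 0.05. Tubb2b was under 1 RPKM in the mean of every group and was not tested, which leaves 9 of the 10 genes. The floxed gene was read first. Arntl was at 15.7 to 16.3 RPKM in WT at CT0 and 0.68 to 1.26 RPKM in WT at CT12, and at 5.73 to 7.45 RPKM and 3.59 to 4.37 RPKM in KO at the same times. It was lower in KO at CT0 (log2 difference -1.21, limma adjusted p = 0.00058) and higher in KO at CT12 (1.29, limma adjusted p = 6.3e-05). These values count the whole transcript and cannot show the deleted exons.

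Tubb2a moved farthest of the 10 genes. In WT livers it stood at 80.4, 77.7 and 50.9 RPKM at CT0 and at 4.66, 4.26 and 7.86 RPKM at CT12. In KO livers it stood at 124, 55.5 and 62.9 RPKM at CT0 and at 47.5, 45.4 and 56.1 RPKM at CT12. The WT groups were far apart, and the CT12 livers of KO mice lay among or just under the CT0 livers of both genotypes. The ratio of WT means between CT0 and CT12 was 12.5, and that between KO and WT at CT12 was 8.88. On the log2 scale Tubb2a fell by 3.43 (SE 0.29) from CT0 to CT12 in WT and was 2.98 (SE 0.29) higher in KO than in WT at CT12. In KO the difference with time was -0.61 (SE 0.29), with overlapping groups, and it was not called. At CT0 the genotypes differed by 0.15 (SE 0.29), not called. The genotype difference at CT12 exceeded that at CT0 by 2.83 (SE 0.41), and this interaction was called. Over leaving out each of the 12 samples in turn, the 3 calls of Tubb2a remained, at -3.67 to -3.29, 2.83 to 3.21 and 2.61 to 3.18.

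**Figure D1:**
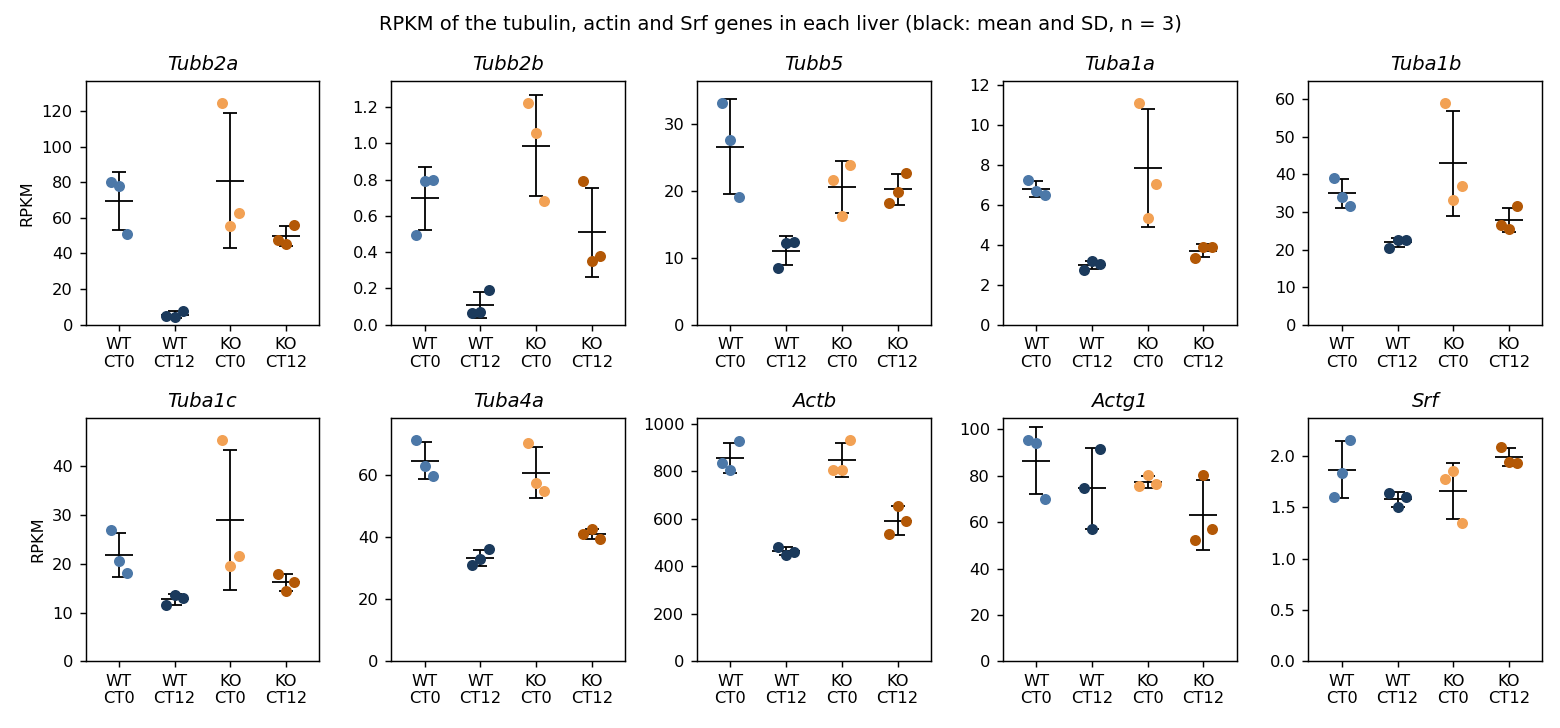
RPKM of each of the 10 genes (main transcript row, linear axes starting at 0) in WT and KO livers at CT0 and CT12. Coloured points are the 3 samples of a group, the black line is their mean and the bar their SD. Tubb2a is at 4.26 to 7.86 RPKM in WT at CT12 and at 45.4 RPKM or above in every other sample.

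Tubb2a lies on chromosome 13 (NCBIM37, 34166170 to 34169877, minus strand) with 4 exons in a transcript of 1584 bases. Tubb2b, a close copy, lies nearby on the same strand (34218877 to 34222223). Their coding sequences are 96.5% identical, with 47 mismatches in 1338 bases. The last 60 coding bases with the stop codon, which encode the acidic tail where β-tubulins differ most from one another, are shown because they tell the genes apart. Sequences are the GENCODE vM1 coding transcripts, 5′ to 3′, and capitals mark bases that differ from, or have no partner in, the printed stretch of Tubb2a.
Tubb2a: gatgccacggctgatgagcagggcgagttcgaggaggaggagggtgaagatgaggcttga
Tubb2b: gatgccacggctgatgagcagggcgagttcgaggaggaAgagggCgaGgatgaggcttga
Tubb5: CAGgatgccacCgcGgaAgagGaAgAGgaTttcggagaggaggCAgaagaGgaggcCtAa
Tubb2b differs from Tubb2a at 3 of these bases, while Tubb5 has 16 in capitals. Those 16 include its leading CAG, which only lacks a partner within the printed stretch. That CAG does not show a difference between the genes. Of the windows of 50 bases in the Tubb2a transcript, 46.4% occur letter for letter in Tubb2b, whereas 0.116% of Tubb5 windows occur in any other protein-coding transcript. The length of the reads is not given in the sources used here, and how reads with several matches were placed is not given either, so the split of reads between Tubb2a and Tubb2b is uncertain.

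Tubb2b, known mainly from the nervous system, was near the limit of detection, on 2 to 35 reads. It was at 0.496, 0.793 and 0.801 RPKM in WT at CT0 and at 0.0645, 0.0709 and 0.194 RPKM in WT at CT12. In KO it was at 1.22, 1.06 and 0.681 RPKM at CT0 and at 0.794, 0.354 and 0.381 RPKM at CT12. Its WT groups did not overlap and were ordered as those of Tubb2a. Its level as a percentage of that of Tubb2a, taken in each sample and averaged by group, was 1.04% to 1.84%. Whether reads of Tubb2a were placed on Tubb2b was not tested.

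Tubb5, the β-tubulin made in most cell types, fell with time in WT and not in KO. Its main row, a transcript of 762 bases on chromosome 17 (NCBIM37, 35972846 to 35975153, minus strand), was at 33.1, 27.6 and 19.0 RPKM in WT at CT0 and at 8.54, 12.2 and 12.4 RPKM at CT12. The KO samples were at 21.6, 16.3 and 23.8 RPKM at CT0 and at 18.2, 19.8 and 22.7 RPKM at CT12. The WT groups were apart and the KO groups overlapped. The log2 difference with time was -1.18 (SE 0.20) in WT, called, and -0.01 (SE 0.20) in KO, not called. KO was higher than WT at CT12 by 0.83 (SE 0.20), called. Without WT CT12 replicate 1, KO CT12 replicate 2 or KO CT12 replicate 3 that call was lost, with the difference still at 0.67 or above. The interaction was 1.16 (SE 0.29) and not called. It passed with the rows of the gene summed (1.12), with the full-length row of 2644 bases (1.02) and without WT CT0 replicate 3 (1.38). The full-length row read nearly the same, at 10.1, 12.2 and 11.1 RPKM in WT at CT12 and 18.3, 20.0 and 21.0 RPKM in KO at CT12.

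All 4 α-tubulins had every CT12 sample under every CT0 sample in both genotypes, and 3 of them were called in WT and 2 in KO. Of all tested genes, 22.9% in WT and 11.4% in KO had every CT12 sample lower, and 7.88% and 1.32% were called lower. Of the 4, Tuba1a, Tuba1b and Tuba1c may share reads and are not separate observations. Tuba4a, the most abundant of them, was at 71.1, 62.7 and 59.7 RPKM in WT at CT0 and 31.0, 33.0 and 36.1 RPKM at CT12. In KO it was at 70.1, 57.2 and 54.6 RPKM at CT0 and 40.9, 42.6 and 39.3 RPKM at CT12. Neither pair of times overlapped, and at CT12 all KO samples were above all WT samples. The log2 difference with time was -0.93 (SE 0.11) in WT and -0.55 (SE 0.11) in KO, both called. The genotype difference at CT12 was 0.29 (SE 0.11), not called. Tuba4a shares no window of 50 bases with another coding transcript, unlike the 3 genes that follow.

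Tuba1a, Tuba1b and Tuba1c are neighbours on chromosome 15 and near copies. Tuba1a is the α-tubulin of neurons in particular, and Tuba1b and Tuba1c are made in many cell types. Tuba1b and Tuba1a are 98.3% identical over their coding bases, and Tuba1b and Tuba1c 97.9%. Windows of 50 bases that occur in another coding transcript make up 57.1% of Tuba1a, 64.6% of Tuba1b and 60.0% of Tuba1c, so the levels of these 3 genes are uncertain one by one.

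Tuba1b was at 39.1, 34.0 and 31.6 RPKM in WT at CT0 and 20.5, 22.6 and 22.6 RPKM at CT12. The KO samples were at 58.9, 33.1 and 36.9 RPKM at CT0 and 26.6, 25.5 and 31.5 RPKM at CT12. It fell by 0.65 (SE 0.18) with time in WT, a call that was lost without any 1 of the 6 WT samples (-0.71 to -0.56). Tuba1a was at 7.23, 6.67 and 6.47 RPKM in WT at CT0 and 2.75, 3.18 and 3.03 RPKM at CT12. In KO it was at 11.1, 5.33 and 7.04 RPKM at CT0 and 3.33, 3.90 and 3.87 RPKM at CT12. It was called lower at CT12 in WT (-0.97, SE 0.18) and in KO (-0.86, SE 0.18). Tuba1c was at 26.9, 20.5 and 18.2 RPKM in WT at CT0, 11.5, 13.7 and 13.0 RPKM in WT at CT12, 45.4, 19.6 and 21.7 RPKM in KO at CT0 and 17.96, 14.4 and 16.2 RPKM in KO at CT12. Its differences with time, -0.72 (SE 0.25) in WT and -0.70 (SE 0.25) in KO, were of the same size as those of the other 2 genes but were not called. The WT difference passed the threshold without KO CT0 replicate 1 and with only the 6 samples compared. All 3 genes had separate CT0 and CT12 groups in both genotypes, and every KO sample at CT12 was above every WT sample at CT12. The latter was so for 20.4% of all tested genes.

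KO CT0 replicate 1 stood above the other samples of its group for every tubulin described here but Tubb5, with Tubb2a at 124 RPKM, Tuba1b at 58.9 RPKM and Tuba1c at 45.4 RPKM. Without it the difference with time in KO became -0.25 for Tubb2a, -0.34 for Tuba1c, -0.32 for Tuba1b, -0.44 for Tuba4a and -0.61 for Tuba1a. The uncalled genotype differences at CT0 changed sign without it for Tubb2a (0.15 to -0.21), Tuba1c (0.30 to -0.06) and Tuba1a (0.13 to -0.13). The call of Tuba4a was then lost and that of Tuba1a remained. The interaction of Tubb2a was 3.18 without it. The calls in KO also turned on other samples. That of Tuba4a was lost without any 1 KO CT12 sample, that of Tuba1a without KO CT0 replicate 3, any 1 KO CT12 sample or WT CT0 replicate 2, and that of Actb without KO CT0 replicate 3 or KO CT12 replicate 1 (-0.59 to -0.45 over all 12 such fits). Over the same fits the range was -0.62 to -0.44 for Tuba4a and -1.07 to -0.61 for Tuba1a.

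Summed over all β-tubulin genes, the WT level was 156.0 ± 30.3 RPKM at CT0 and 46.6 ± 5.39 RPKM at CT12 (SD, n = 3), against 154.5 ± 56.7 and 111 ± 6.91 RPKM in KO. Tubb2a made up 44.4% ± 2.56 of it in WT at CT0, 11.8% ± 3.03 in WT at CT12, 51.3% ± 4.90 in KO at CT0 and 44.6% ± 2.78 in KO at CT12. Tubb4b, a broadly made β-tubulin, took the leading place in WT at CT12 with 58.8% ± 3.73, against 31.7% to 35.1% in the other groups. Without Tubb2a the remaining β-tubulins summed to 86.3 ± 14.4, 41.0 ± 3.98, 73.5 ± 19.3 and 61.6 ± 3.03 RPKM in WT at CT0, WT at CT12, KO at CT0 and KO at CT12. The α-tubulin genes summed to 129 ± 14.9, 71.5 ± 4.37, 143 ± 40.0 and 91.9 ± 1.71 RPKM in the same order. Their make-up moved less, with Tuba4a at 50.2%, 46.6%, 43.5% and 44.6% of the sum. The ratio of β to α sums was 0.618 to 0.692 in the WT samples at CT12 and 0.958 to 1.33 in the other 9 samples. Since α and β chains enter microtubules as dimers, the ratio is of interest, but it is one of messages and not of proteins.

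**Figure D2:**
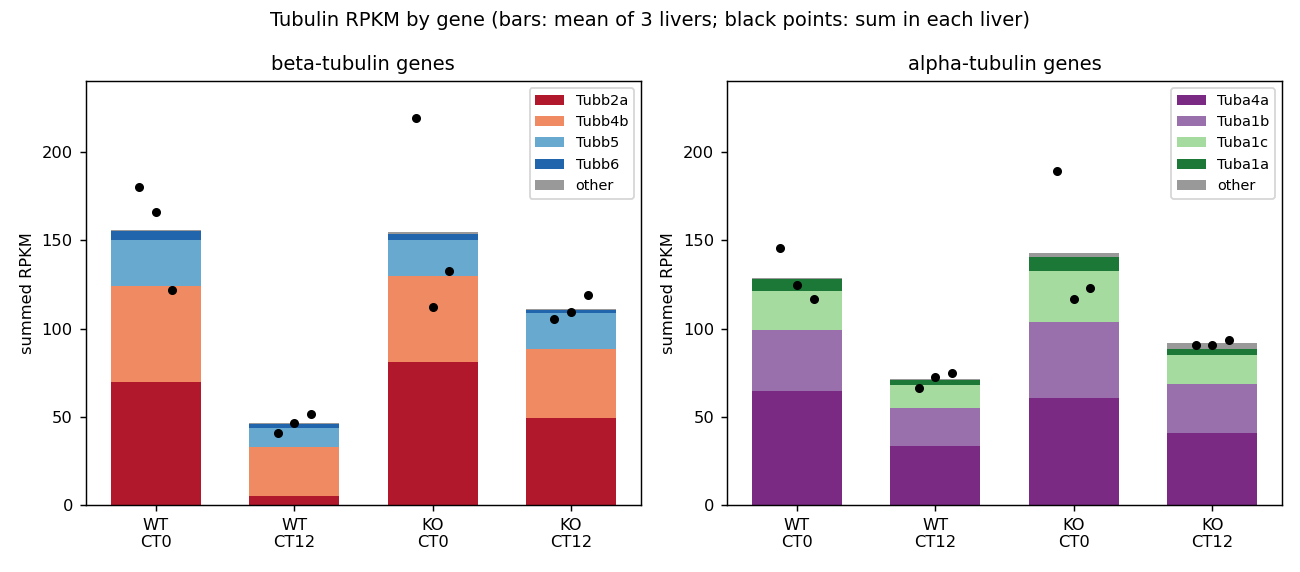
Summed RPKM of the β-tubulin genes (left) and α-tubulin genes (right) in each group, on linear axes starting at 0. Coloured segments are means of 3 livers for each gene and black points are the sums in single livers. In WT at CT12 the β sum is 41.1 to 51.9 RPKM and Tubb2a is a thin band of it. The high points of KO at CT0, 219 RPKM for β and 189 RPKM for α, are replicate 1.

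Both actin genes were read from several overlapping transcript rows that share reads. Actb, the cytoplasmic β-actin and often the reference gene of PCR assays, lies on chromosome 5 (NCBIM37, 143664794 to 143668433, minus strand). Its highest row is a transcript of 401 bases. That row was at 834, 805 and 926 RPKM in WT at CT0 and 482, 449 and 459 RPKM in WT at CT12. The KO samples were at 806, 806 and 931 RPKM at CT0 and 535, 653 and 589 RPKM at CT12. The CT0 samples of both genotypes were together, all CT12 samples were lower, and the KO samples at CT12 were above the WT samples. The log2 difference with time was -0.88 (SE 0.10) in WT and -0.52 (SE 0.10) in KO, both called. At CT0 the genotypes differed by -0.01 (SE 0.10). At CT12 Actb was 0.35 (SE 0.10) higher in KO, called. That call was lost without WT CT0 replicate 1 or 2, any 1 WT CT12 sample, or KO CT12 replicate 2 or 3 (0.28 to 0.42 over all 12 such fits), with the longest row, with each sample centred on its mean, without a filter, with the replicate block and with only the 6 samples compared. The KO call with time was lost after quantile normalization. The direction of these differences held under all of these settings.

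The full-length Actb row of 1920 bases was at 506, 488 and 538 RPKM in WT at CT0, 292, 284 and 291 RPKM in WT at CT12, 479, 475 and 559.5 RPKM in KO at CT0 and 324, 394 and 355 RPKM in KO at CT12. All 5 Actb rows had WT ratios of CT0 to CT12 of 1.77 to 1.86 and KO ratios of 1.41 to 1.43. Of its windows of 50 bases, 11.8% occur in another coding transcript, mostly one of Lrrc58 (179 windows).

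Actg1, the γ-actin, had overlapping groups in every comparison by its main row but not by every row. Its difference from Actb was not tested. Its main row, 326 bases on chromosome 11 (NCBIM37, 120207696 to 120208291, minus strand), was at 95.4, 94.2 and 69.9 RPKM in WT at CT0 and 74.9, 57.0 and 91.7 RPKM in WT at CT12. In KO it was at 75.5, 80.4 and 76.5 RPKM at CT0 and 52.1, 80.2 and 57.0 RPKM at CT12. None of the differences of that row, from -0.32 to -0.09 with SE of 0.19 to 0.27, was called. The full-length row of 1952 bases had overlapping groups in WT but not in KO. There it was at 43.8, 47.6 and 44.0 RPKM at CT0 and 28.1, 41.1 and 29.6 RPKM at CT12. By main row, 11.4% of all tested genes had every KO sample lower at CT12. The coding sequences of Actb and Actg1 are 88.7% identical. Between their full-length rows the ratio of Actb to Actg1 was 10.6 ± 2.43, 7.02 ± 1.44, 11.2 ± 1.38 and 11.03 ± 1.27 (SD, n = 3 each) for WT at CT0, WT at CT12, KO at CT0 and KO at CT12. Within-group ranges of WT, 9.10 to 13.4 and 5.82 to 8.62, did not overlap. In KO the time differences of the longest rows were -0.49 for Actb and -0.46 for Actg1, the latter not called.

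Srf, the factor that binds CArG boxes in actin genes, was low and nearly level, on 63 to 149 reads. It lies on chromosome 17 (NCBIM37, 46683788 to 46693111, minus strand) and has 1 row of 4093 bases. It was at 1.60, 1.84 and 2.15 RPKM in WT at CT0 and 1.64, 1.497 and 1.60 RPKM in WT at CT12. The KO samples were at 1.77, 1.85 and 1.34 RPKM at CT0 and 2.08, 1.94 and 1.93 RPKM at CT12. The KO samples at CT12 were above all WT samples at CT12 and above all KO samples at CT0. Neither difference, 0.21 (SE 0.11) and 0.17 (SE 0.11), was called, nor was the interaction (0.32, SE 0.16).

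The stretches before the transcription start are shown for the 4 genes in which a searched motif was found there, to place E-boxes, CArG boxes and TATA boxes next to these levels. They are RefSeq promoters on GRCm38.p6, another build than that of the files, 5′ to 3′ on the gene's strand, with the motifs in capitals.
Tubb2a, chr13:34078009-34078068, bases -60 to -1: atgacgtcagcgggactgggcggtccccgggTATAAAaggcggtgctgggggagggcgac
Tubb5, chr17:35838342-35838401, bases -100 to -41: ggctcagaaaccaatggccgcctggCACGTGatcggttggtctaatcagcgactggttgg
Actg1, chr11:120348566-120348645, bases -150 to -71: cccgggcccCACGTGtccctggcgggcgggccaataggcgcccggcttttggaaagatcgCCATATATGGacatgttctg
Srf, chr17:46556193-46556262, bases -100 to -31: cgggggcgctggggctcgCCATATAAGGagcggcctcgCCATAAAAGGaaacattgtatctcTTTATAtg
The windows searched ran from 250 bases before to 50 after the start, on both strands, for the E-box CACGTG, the TATA box TATAAA and the CArG box, and no 2 matches in these genes overlapped. Of 32851 mouse promoters, 7.15% hold that E-box, 13.6% that TATA box and 1.63% a CArG box. Tubb5 has an E-box at -75 to -70 and Actg1 one at -141 to -136. Srf has 2 CArG boxes and Actg1 has 1, while the Srf match to TATAAA is on the other strand. The table held 8 of the 10 genes, and Actb and Tubb2b were those without an entry. A match of letters is a description and does not show binding.

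Read together, 6 of the 9 tested genes were called lower at CT12 in WT, where 11.6% of all tested genes were called and 7.88% were called lower. In KO 3 of the 9 were called lower (Actb, Tuba1a and Tuba4a), where 2.43% of all genes were called and 1.32% were lower. Between genotypes at CT12, 3 of the 9 were called and all were higher in KO, against 10.5% of all genes called and 6.97% called higher. At CT0 limma called none of the 9, and none had an unadjusted p under 0.05 (1.86% of all genes called). By the interaction 1 of the 9 was called, Tubb2a, against 1.49% of all genes. The symbols were chosen on these contrasts, so these shares are set beside the background and nothing is read from them. The median log2 difference over the 9 genes was -0.88 with time in WT (all tested genes -0.07), -0.55 with time in KO (0.00), 0.32 between genotypes at CT12 (0.08) and -0.01 at CT0 (0.01). Groups did not overlap, with CT12 lower, for 7 of the 9 tested genes in WT (22.9% of all) and 5 of the 9 in KO (11.4% of all). At CT12, KO was wholly above WT for 8 of the 9 (20.4% of all), all but Actg1. The time comparisons and the genotype comparisons share groups of samples and are not independent of each other.

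**Figure D3:**
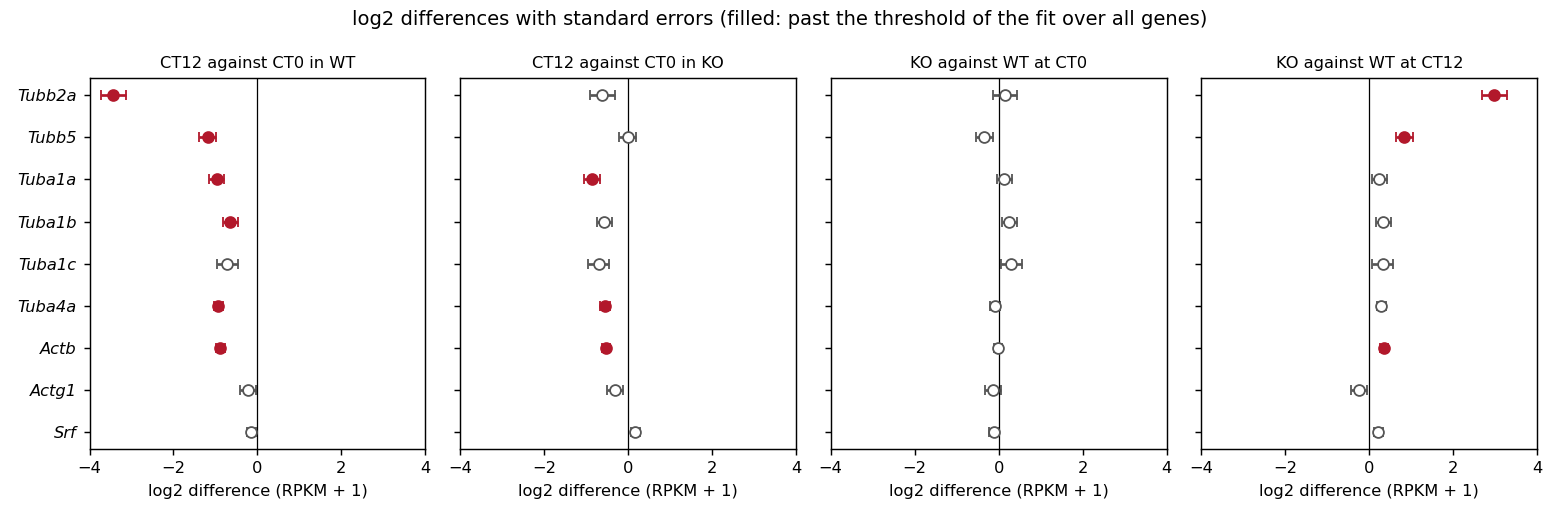
log2 differences on the RPKM + 1 scale (horizontal axes) for the 9 tested genes in 4 comparisons, with bars for the standard error of the fit to 12 samples. Filled red points are past the threshold of the fit over all genes. Tubb2a is at -3.43 in WT over time and at 2.98 between genotypes at CT12, and the points of KO against WT at CT0 lie between -0.34 and 0.30.

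Among other tubulin genes, 13 of 15 symbols listed were measured and 5 were tested. In WT 2 fell with time, Tubb4b (-0.96, SE 0.19, limma adjusted p = 0.0066) and Tubb6 (-0.77, SE 0.18, limma adjusted p = 0.021), and in KO limma called none (1 at an unadjusted p under 0.05). Beside these, 7.88% of all tested genes were called lower with time in WT and 1.32% in KO. The call of Tubb6 was lost without WT CT0 replicate 1 or 3 or WT CT12 replicate 1 or 3 (-0.76 to -0.64). Tuba8, an α-tubulin best known from muscle and testis, was higher in KO at CT12 (1.43, SE 0.24, limma adjusted p = 0.0027), with means of 3.15 ± 1.13 RPKM in KO and 0.522 ± 0.279 RPKM in WT (SD, n = 3). Tuba8 passed the filter of 1 RPKM only through the KO groups, where it was high. At CT0 it was also higher (1.07, SE 0.24, limma adjusted p = 0.048), but 9 of the 12 fits without 1 sample lost this call (0.88 to 1.20), those without any WT sample, without KO CT0 replicate 1 or 3 and without KO CT12 replicate 3. The CT0 call was also lost with a pseudocount of 0.1, without a filter, with summed rows, with the replicate block and with only the 6 samples compared. Of 9 other actin and actin-related genes, 6 were tested and limma called none in any of the 5 comparisons, with 4 of 30 values at an unadjusted p under 0.05. The share at that cutoff over all tested genes was not counted. Acta2, among those not called, had means of 1.485 and 0.375 RPKM in WT at CT0 and CT12 and 1.403 and 0.353 RPKM in KO. Its groups were apart in both genotypes, with CT12 lower, as were those of 22.9% of all tested genes in WT and 11.4% in KO. It passed the filter only through its CT0 groups, where it was high, so its values are not support for anything. The log2(RPKM + 1) scale understates changes at such low levels.

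Chaperones, tubulin folding cofactors and microtubule regulators (29 tested of 32 listed) had a median log2 difference of 0.01 with time in WT. There 3 rose and 2 fell, against 5 and 1 after quantile normalization and 7 and 1 with centred samples. In KO limma called none, with 0 at an unadjusted p under 0.05. Over all tested genes 11.6% were called with time in WT and 2.43% in KO. Ttc5, the reader of nascent tubulin chains, fell in WT from 4.70 ± 0.0862 to 2.88 ± 0.290 RPKM (SD, n = 3; -0.56, SE 0.10, limma adjusted p = 0.0034), while in KO it was at 3.795 ± 0.433 and 3.70 ± 0.0801 RPKM. Its interaction was 0.53 (limma adjusted p = 0.091). The first 12 coding bases, from which the residues read by TTC5 are made, are atgcgcgagatc in Tubb2a, atgagggaaatc in Tubb5, atgcgtgagtgc in Tuba1a, Tuba1b and Tuba1c and atgcgcgagtgc in Tuba4a. Tcp1, a subunit of the chaperonin that folds actin and tubulin, rose with time in WT (0.41, limma adjusted p = 0.0076), was lower in KO at CT12 (-0.48, limma adjusted p = 0.0026) and had an interaction of -0.56 (limma adjusted p = 0.035). Leaving out 1 sample lost the interaction call in 11 of 12 fits (-0.59 to -0.49), all but that without KO CT0 replicate 2. Summed rows lost it too. Mapre2, a protein of growing microtubule ends, rose with time in WT (0.58, limma adjusted p = 0.014), a call lost without WT CT0 replicate 2 or 3 or WT CT12 replicate 1 (0.51 to 0.54), and was lower in KO at CT12 (-0.72, limma adjusted p = 0.0036). Tbca, which binds β-tubulin during folding, rose with time in WT (0.33, limma adjusted p = 0.023), a call lost without WT CT0 replicate 2 or 3 or WT CT12 replicate 1 or 3 (0.32 to 0.33).

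Of 24 genes listed as SRF targets, 20 were tested. In WT 10 fell with time and none rose, and in KO 4 fell and none rose, beside 7.88% and 1.32% of all tested genes called lower. The median log2 differences were -0.47 and -0.29. The counts in both genotypes include Tagln and Myl9, which passed the filter of 1 RPKM only through their CT0 groups, where they were high. Their falls are therefore not support for anything. Myl9 had means of 2.07 and 0.740 RPKM in WT at CT0 and CT12 and 1.73 and 0.641 RPKM in KO. Its KO call was lost in 10 of 12 fits without 1 sample (-0.82 to -0.61). Tagln, a muscle-type actin-binding protein, fell in WT (-1.31, SE 0.25, limma adjusted p = 0.0057) and in KO (-1.12, SE 0.25, limma adjusted p = 0.038). Its means were 3.97 and 0.980 RPKM in WT at CT0 and CT12 and 3.23 and 0.895 RPKM in KO. Only the CT0 groups took it past the filter of 1 RPKM. Cnn2, a calponin, fell in WT (-1.02, SE 0.18, limma adjusted p = 0.0044) and was at -0.71 in KO (limma adjusted p = 0.065). Egr1, an immediate early gene, fell in WT (-1.17, SE 0.28, limma adjusted p = 0.022) and was at 0.08 in KO, with an interaction of 1.25 that was not called (limma adjusted p = 0.20). Tagln2 fell in WT (-0.76, limma adjusted p = 0.020) and KO (-0.97, limma adjusted p = 0.021) and was the only one of the 20 called between genotypes at CT12, lower in KO (-0.75, limma adjusted p = 0.020). No interaction was called among the 20 by limma, with 4 at an unadjusted p under 0.05, so a difference between genotypes in the change with time was not shown for any of them. The number that fell was 6 to 11 in WT and 1 to 4 in KO over the fits without 1 sample, lowest without WT CT12 replicate 1 and without KO CT0 replicate 3. The call of Egr1 was lost without WT CT0 replicate 2 or WT CT12 replicate 1 or 2 (-1.12 to -0.99), and those of Tagln2 turned on single samples in all 3 comparisons (-1.04 to -0.58 where lost). Samples whose removal lost its call were WT CT0 replicates 2 and 3 and WT CT12 replicates 1 and 3 for time in WT, KO CT0 replicate 3 and KO CT12 replicates 1 and 2 for time in KO, and WT CT12 replicate 2 and KO CT12 replicates 1 and 2 between genotypes. The call of Tagln in KO was lost without KO CT0 replicate 3, any 1 KO CT12 sample, WT CT0 replicate 2 or WT CT12 replicate 1 (-1.18 to -0.85).

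Of 6 tested SRF cofactors and regulators, 1 fell with time in WT, Fhl1 (-0.81, SE 0.22, limma adjusted p = 0.039), a call lost without WT CT0 replicate 1 or 3 or WT CT12 replicate 2 or 3 (-0.82 to -0.63), without a filter, after quantile normalization, with summed or longest rows and with centred samples, and in KO it was at -0.71 (limma adjusted p = 0.11). Among 29 regulators of actin assembly, 5 fell and 1 rose with time in WT, and 1 fell in KO, beside the same 7.88% and 1.32% called lower. The number that fell was 2 to 5 in WT, lowest without WT CT12 replicate 3, and 0 to 2 in KO over the fits without 1 sample. The β-thymosins, which hold monomeric actin, were the largest of these by size of difference. Tmsb10 fell in WT (-1.06, SE 0.15, limma adjusted p = 0.00086) and KO (-0.72, SE 0.15, limma adjusted p = 0.031), the latter lost without any 1 KO CT0 sample or KO CT12 replicate 1 or 2 (-0.75 to -0.63). Tmsb4x fell in WT from 109 ± 4.85 to 58.6 ± 2.97 RPKM (SD, n = 3; -0.88, limma adjusted p = 0.0038). Arpc1b, a subunit of the ARP2/3 complex, fell with time in WT (-0.53, limma adjusted p = 0.027), whereas KO exceeded WT at CT12 (0.80, limma adjusted p = 0.0027). Its time call was lost without WT CT0 replicate 1 or 2 or WT CT12 replicate 1 or 3 (-0.58 to -0.40), while the genotype call held at 0.73 to 0.89. The time call was also lost with summed rows and with the longest row. Diap1, a formin, fell in WT (-0.41, limma adjusted p = 0.012), a call lost without WT CT0 replicate 3 or WT CT12 replicate 3 (-0.38 to -0.34).

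**Figure D4:**
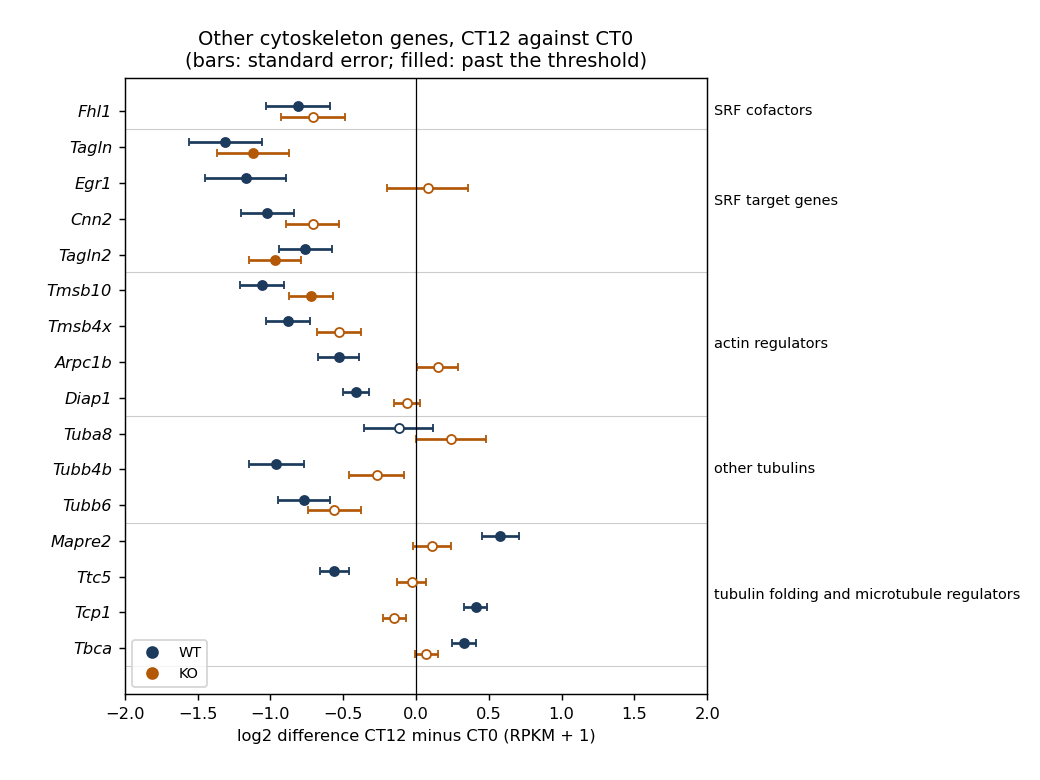
log2 differences CT12 minus CT0 on the RPKM + 1 scale for the named genes of each list, in WT (blue) and KO (orange), with bars for the standard error. Filled points are past the threshold. Tagln, at -1.31 in WT and -1.12 in KO, is farthest to the left in both.

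Actin genes, SRF targets and the β-thymosins are also strongly made by the non-hepatocyte cells of the liver, and markers of those cells moved with time too. In bulk tissue fewer cells of a type and less RNA per cell cannot be told apart. The 7 stellate and smooth muscle markers, of which Tagln is also in the SRF list, summed to 110 to 142 RPKM in WT at CT0 and 77.2 to 90.2 RPKM in WT at CT12, and to 132 to 165 and 95.4 to 124 RPKM in KO. Of these, 3 fell in WT (Tagln, Pdgfrb and Dcn) and 2 in KO (Tagln and Pdgfrb), with Pdgfrb at -0.81 (limma adjusted p = 0.0039) and -0.82 (limma adjusted p = 0.016). Over all tested genes 7.88% were called lower with time in WT and 1.32% in KO. The 5 endothelial markers summed to 55.3 to 63.4 and 36.5 to 38.8 RPKM in WT and 58.8 to 63.9 and 30.3 to 63.5 RPKM in KO. The 5 Kupffer cell markers summed to 106 to 138 and 62.9 to 94.7 RPKM in WT and 97.5 to 146 and 68.2 to 118 RPKM in KO. In WT 1 of the 5 endothelial markers (Cdh5), 1 of the 5 Kupffer cell markers (Emr1) and 1 of the 3 tested bile duct markers (Krt7) were called lower with time. All 5 endothelial and all 5 Kupffer cell markers had an unadjusted p under 0.05, a share not counted over all tested genes. Krt7 had means of 1.06 and 0.219 RPKM in WT at CT0 and CT12 and 0.554 and 0.074 RPKM in KO. It passed the filter only through WT at CT0, the group where it was highest, so its fall is not support for anything. Over the fits without 1 sample 0 to 4 endothelial and 0 to 3 Kupffer cell markers were called lower. The calls of Cdh5 and Dcn were lost without WT CT0 replicate 2 or WT CT12 replicate 3 (-0.66 to -0.64 and -0.58 to -0.52), and that of Pdgfrb in KO without KO CT0 replicate 3 or KO CT12 replicate 1 (-0.79 to -0.71). That of Krt7 was lost without WT CT0 or WT CT12 replicate 1 or 3 (-0.77 to -0.62), and that of Emr1 without any 1 WT CT0 sample, WT CT12 replicate 2 or 3, KO CT0 replicate 2 or KO CT12 replicate 2 (-0.75 to -0.55). Quantile normalization and centring each ended the call of Krt7, as did a pseudocount of 0.1 and the 6 samples alone, and that of Emr1 was lost without a filter, with centring and with the replicate block. Their part in the time differences of Actb, the tubulins and the SRF targets was not tested. Between genotypes at CT12 limma called none of the 26 tested markers other than those of hepatocytes, beside 10.5% of all tested genes called. Of these markers 4 had an unadjusted p under 0.05, and 0 to 3 endothelial markers were called higher in KO over the fits without 1 sample. Hepatocyte markers were the most abundant of all lists (22600 to 47300 RPKM summed), and Alb was lower in KO at CT0 (-0.93, limma adjusted p = 0.0045) and at CT12 (-1.05, limma adjusted p = 0.00030). Both Alb calls were lost without a filter and after quantile normalization. It was the only 1 of the 5 hepatocyte markers called, and at CT12 the median of the list was 0.09, with Apoa1 at 4582 RPKM in KO and 3859 RPKM in WT and Ttr at 2917 and 2715 RPKM. Markers of lymphocytes (3.52 to 6.52 RPKM summed, 1 tested), dividing cells (1.72 to 4.35 RPKM, 2 tested) and red blood cells (82.4 to 275 RPKM, 3 tested) had no limma call in any comparison, with 11 of 30 values at an unadjusted p under 0.05. These 30 values come from comparisons that share samples and are not separate observations. Shares at that cutoff over all tested genes were not counted for any of these lists.

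The genes whose profile over the 12 samples was most like that of Tubb2a were Insig2, Chka, Spon2, Ndrg1 and Clpx. Likeness was the root mean square difference between centred log2(RPKM + 1) values, which ran from 0.44 to 0.64 for these 5 among 10790 genes compared, beside 1.5 for the spread of Tubb2a itself. Insig2, which retains the sterol-sensing SCAP and SREBP complex in the endoplasmic reticulum, had means of 183 RPKM in WT at CT0 and 20.2 RPKM in WT at CT12, against 249 and 206 RPKM in KO. Chka, choline kinase, had 43.3 and 6.39 RPKM in WT and 51.1 and 31.8 RPKM in KO. For Actb the nearest were Hfe2, Pkm, Khnyn, Ing4 and Bbc3 (0.10 to 0.13, beside 0.38 for Actb itself), and for Srf they were Atp7a, Uevld, Fan1, Rbm22 and Taok1 (0.06 to 0.07, beside 0.12). The order of levels per length was the same at the top in every group, with Actb first. By main row, next after it came Actg1, Tubb2a and Tuba4a within reach of each other at CT0, where the ranges of Tubb2a and Tuba4a overlapped in both genotypes. The place of Actg1 depends on the row. Its full-length row had CT0 means of 49.4 RPKM in WT and 45.1 RPKM in KO, under those of Tubb2a and Tuba4a. In WT at CT12 Tubb2a was below Tuba4a, Tuba1b and Tuba1c in every sample.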

How the data were processed

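RNA of 12 liver samples, 3 in each of 4 groups named by the sample titles, was sequenced with a TruSeq library kit. The authors deposited 1 table per sample of RPKM for 46585 Ensembl transcripts. The submitters' processing notes name TopHat2, bedtools 2.19.1 and mm9, without giving their roles. How reads with several matches were counted is not given in the sources used here.

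RPKM are not counts. Depth was recovered from the low values, of which 94.6% to 95.7% were whole reads within 0.02, using GENCODE vM1 lengths (95.5% of rows), and was tested on simulated data. The row of each symbol with the highest mean was kept, genes with a group mean of at least 1 RPKM were tested, and log2(RPKM + 1) was fitted by group with limma 3.58.1 (R 4.3.3, trend) over all samples. P-values were two-sided and adjusted by Benjamini-Hochberg over 10799 genes, with a threshold of 0.05. The share of all tested genes with an unadjusted p under 0.05 was not counted. Counts at that cutoff therefore have no background beside them, and nothing is read from them. The fit was tested on simulated data. Python 3.11.15, pandas 2.3.3, Biopython 1.88 and matplotlib 3.10.9 were used for joins, sequences and figures.

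The 10 genes and the lists of other cytoskeleton genes and cell type markers were chosen with earlier results of these data known. From each list at most 4 genes with a call were named, by size of the called difference. Alternatives were a pseudocount of 0.1, no filter, 1 RPKM in every sample, quantile normalization, summed rows, leaving out each sample in turn, a replicate block and a fit to the 6 samples of a comparison alone. The longest row and centring each sample were chosen after seeing the data. Symbols not found in the tables, such as Adgre1 and Map4, were not analysed here.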

Additional observations from a re-analysis of the deposited data

Results flagged for a closer look

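The genotype difference of Tubb2a differed between the times. It was 0.15 at CT0 and 2.98 at CT12 on the log2 scale, and the interaction of 2.83 (SE 0.41) was past the limma threshold, as it was without each sample in turn. Tubb2a was chosen with these differences known, so this is a description and not support. Tcp1 showed the opposite sign, with genotype differences of 0.08 at CT0 and -0.48 at CT12 and an interaction of -0.56 past the threshold. That call was lost in 11 of 12 fits without 1 sample and with summed rows. Groups of 3 samples are too small for a test of single outlying samples.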

How the results depend on the processing

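The 13 calls of the actin and tubulin genes kept their sign under every one of the alternatives run (272 of 272 values). The genes were chosen on these contrasts and the refits reuse the same samples. Kept signs and calls therefore describe the processing and are not support for the differences. The calls of Tubb2a, and those with time in WT of Tubb5, Tuba1a, Tuba4a and Actb, also stayed past the threshold in all of them. Of 936 values of log2 differences, 18 moved by more than 1 SD between replicates, 9 of them without KO CT0 replicate 1. The number of these genes called between genotypes at CT12 (3) was 2 with the replicate block and 1 to 3 without 1 sample. The number called with time in KO (3) was 0 with only the 6 samples compared and 0 to 3 without 1 sample. The interaction (1) gave 2 with summed rows, 2 with the longest row and 1 to 2 without 1 sample. The cause was not tested.

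Over all tested genes, calls at CT0 (201) were 114 without a filter, 117 at 1 RPKM in every sample and 105 with only 6 samples. Calls with time in KO (262) were 161 without a filter and 26 with only 6 samples. Without 1 sample the counts ran from 76 to 208 for genotype at CT0 (lowest without WT CT0 replicate 2), 728 to 1281 at CT12 (without WT CT12 replicate 3), 660 to 1393 for time in WT (without WT CT12 replicate 3), 62 to 257 for time in KO (without KO CT0 replicate 3) and 87 to 146 for the interaction (without WT CT0 replicate 2). The replicate block gave 173, 1075, 1198, 225 and 128 calls for genotype at CT0 and CT12, time in WT and KO, and the interaction. Samples with the same number did not deviate together on average over the tested genes (mean r 0.00825 against -0.00407 for other pairs). Pairs with the same number ran from -0.0665 to 0.139. What the numbers stand for is not given in the sample titles, and this average cannot exclude a shared factor that affects some genes. Among the 9 genes the block changed 1 call, that of Actb between genotypes at CT12. Calls with time in WT split into 401 higher and 851 lower, but 584 and 587 after quantile normalization and 659 and 561 with centred samples. Between genotypes at CT12, 753 higher and 377 lower became 543 and 501, and 514 and 528. For the interaction, 116 and 45 became 86 and 58, and 81 and 66. At 11460000 to 19020000 reads, Tubb2b on 2 to 35 reads could not be followed.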
